A study of Macaca mulatta with 6 samples.

Results

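The data described here are the plasma levels of 138 mature microRNA (miRNA) sequences with a number of 1000 or above in their name, measured in 3 rhesus monkeys before and after cerebral ischemia. miRBase numbers miRNA families in the order of their registration, so a high number marks a late entry. The members were chosen by measured values: an annotated row of the deposited table belonged to the set when it reached a normalized value of 10 in 3 or more of the 6 libraries. Of 403 annotated rows with such a number, 353 remained after 9 numbers had been left out (miR-1185, miR-1193, miR-1197, miR-1307, miR-2478, miR-4454, miR-4488, miR-6236 and miR-6240), holding 343 different sequences. The limit was reached by 138 of these sequences in 141 rows, since 3 sequences were listed in 6 rows with the same values. The whole table held 2046 rows, of which 807 reached the limit.

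The study asked which circulating miRNAs differ in the same animals between blood drawn before and after ischemia. Adult male rhesus monkeys (Macaca mulatta) were anesthetized, and a blood clot was flushed through a catheter into the right middle cerebral artery (middle cerebral artery occlusion, MCAO). Only animals whose artery was still blocked at angiography were kept. Each group, before ischemia and after ischemia, held 1 plasma library of each of 3 monkeys. Blood came from the saphenous vein, and the methods place the second sample at 3 h after onset. No group had the anesthesia and the catheter without the clot, so ischemia, anesthesia, the procedure and the passing of time cannot be told apart. The monkeys are named 1, 2 and 3 by replicate number, taking the same number as the same animal, which the sample labels do not state.

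A miRNA is cut from a hairpin precursor by the nucleases Drosha and Dicer, and the mature strand guides an Argonaute protein to messenger RNAs that pair with its seed, bases 2 to 8. Both strands, or arms, of a hairpin can be loaded, and the arm from the 5′ side is called 5p and the other 3p. Early numbers went to abundant miRNAs shared by many animals, while later numbers went to rarer, younger or less certain loci found by deep sequencing, among them fragments of other noncoding RNA. In plasma miRNAs are carried by vesicles and proteins and come from blood cells, platelets, vessel walls and organs, so that fewer cells of a type and less RNA per cell cannot be told apart.

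The most abundant members are shown first, because they carry most of the signal. Sequences are those of the deposited table, written 5′ to 3′ with T for U and the seed in capitals. The prefix gives the species of the matched entry (mml rhesus, hsa human, mmr mouse lemur, mmu mouse, cgr Chinese hamster, pal black flying fox, oan platypus, ppy orangutan, cja marmoset, ssc pig). L and R give the bases gained or lost at either end, and ss gives a substitution with its position.
mml-miR-6529-5p: gAGAGATCagaggcgcagagt
mml-miR-1271-5p: cTTGGCACctagcaagcactca
mml-miR-4446-3p_R+1: cAGGGCTGgcagtgagatgggt
mml-miR-1180-3p: tTTCCGGCtcgcgtgggtgtgt
mmr-miR-1839_L+1: aAGGTAGAtagaacaggtcttgt
hsa-miR-3120-3p: cACAGCAAgtgtagacaggca
These 6 sequences have 6 different seeds, and none of the seeds but that of miR-1271-5p was found in a detected older miRNA.

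The next set is shown because its sequences share a seed or overlap. miR-1271-5p has the seed of miR-96, and miR-6134 that of the let-7 family. The sequence of miR-3074-5p is the reverse complement of miR-24-3p over 20 bases, and that of miR-3120-3p is the reverse complement of miR-214-5p over 21. miR-7180-3p and miR-7172-5p share the seed GGCCTCT.
mml-miR-96_R-1: tTTGGCACtagcacatttttg
mml-miR-6134_R+3_1ss18GT: tGAGGTAGtaggatgtatagtt
mml-let-7g-5p: tGAGGTAGtagtttgtacagtt
hsa-miR-3074-5p_R+1: gTTCCTGCtgaactgagccagt
mml-miR-24-3p_R+1: tGGCTCAGttcagcaggaacagt
mml-miR-214-5p: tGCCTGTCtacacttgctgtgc
mml-miR-7180-3p: tGGCCTCTgggtgtgtaccct
mml-miR-7172-5p_R+1: aGGCCTCTcagggtttctgga
The 138 sequences held 125 different seeds. Of these, 8 seeds were shared by 2 or more members, 21 members in all, and 7 members had the seed of a detected older miRNA.

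The third set is shown because of its 3′ end. Mature transfer RNAs (tRNAs) end in the added bases CCA, and 14 members, 10.1%, ended in these letters, against 3 of 512 detected older sequences, 0.586%. Most were 18 nt long.
cgr-miR-1260: aTCCCACCgctgccacca
pal-miR-9995-3p: aTCTCGGTggaacctcca
pal-miR-9993a-3p: aTCTCGGTgggacctcca
pal-miR-9993b-3p: aTCTCGCTggggcctcca
oan-miR-1386: cTCCTGGCtggctcgcca
hsa-miR-7977_1ss6AG: tTCCCGGCcaacgcacca
hsa-miR-1260a_R+2_1ss9TG: aTCCCACCgctgccaccaaa
mml-miR-1260b_R+2_1ss9AG: aTCCCACCgctgccaccatt
The miR-1260 forms differed only behind the 18th base. The form cgr-miR-1260 ended in CCA, and the other 5 forms carried 2 further bases. The values of 3 such forms, cgr-miR-1260_R+2_1, _R+2_2 and _R+2_3, were identical in all 6 libraries although their sequences differ, so they are no separate measurements.

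The libraries were uneven in depth. Divided by the value of 1 read, 1.28 to 1.86 normalized counts after ischemia and 0.565 to 0.779 before, 82.3% to 86.6% of the values above 0 came to whole reads within 0.01 reads, and the totals were 6036830 to 9737589 reads after ischemia and 10745498 to 15548691 before. Few rows lay under 5 reads, 45 to 74 per library, so an entry listed at 0 may hold a few reads. A value of 5 reads was worth 2.83 to 3.90 before ischemia and 6.41 to 9.30 after. Of the 138 members, 14, 17 and 24 were listed at 0 in the libraries after ischemia and 5, 4 and 2 in those before. Red blood cell miRNAs (miR-486-5p, miR-451, miR-144-3p and miR-144-5p) made up 7.57%, 6.49% and 18.6% of the summed values before ischemia and 32.9%, 13.1% and 27.03% after in monkeys 1, 2 and 3. None of these 4 passed the test of the groups. The log2 of miR-451 over miR-23a-3p, a common gauge of lysed red cells, was 0.33, 0.11 and 1.90 before and 2.19, −0.17 and 1.86 after. The 3 platelet markers (miR-126-3p, miR-197-3p and miR-223) together held 4.04% to 7.10% before and 2.79% to 4.82% after. They went different ways. miR-197-3p measured 1857 to 3401 before and 4943 to 8781 after (log2 fold change 1.37, limma, adjusted p = 0.0785). miR-126-3p and miR-223 had log2 fold changes of −0.21 and −0.13. The 5 leukocyte markers (miR-150-5p, miR-155-5p, miR-142-3p, miR-142-5p and miR-342-3p) held 1.92% to 2.49% and 3.22% to 3.58%, with miR-142-5p the largest in every library. Of these 5, miR-142-5p passed as higher (log2 fold change 1.37, limma, adjusted p = 0.0354) and miR-142-3p as lower (−3.04, limma, adjusted p = 0.0094). The part of blood cells, depth and hemolysis in the results below was not tested.

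The 138 members were a small share of plasma miRNA. They held 0.833%, 0.638% and 0.607% of the summed values before ischemia and 0.494%, 0.767% and 0.602% after, means of 0.693% ± 0.123 and 0.621% ± 0.137 (SD, n = 3). The ranges overlapped. The median member had a mean value of 48.2 normalized counts, against 408 for the 512 older annotated sequences that reached the same limit. Only 9 members had a mean over 1000, and 70 lay under 50. The 4 most abundant held 61.0% of the members' sum and the 10 most abundant 77.1%. Detection was rarer too: 40.2% of the candidate sequences reached the limit, against 70.1% of older annotated ones. All 6 libraries reached the limit for 78 members, and exactly 3 libraries for 26. These levels chose the members and are given as a description.

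The members nearest to the limit show how thin it is. The third highest value was 10.1 for mml-miR-7194-5p_R+1, 10.1 for mml-miR-7206-3p_R-1 and 10.2 for pal-miR-9995-3p_1ss1AG, which were inside. It was 9.65 for mml-miR-1230_R+2, mml-miR-7188-5p_L-2R+2 and hsa-miR-7853-5p_1ss13CG, which were outside. The value 9.65 is that of 7 reads in the library of monkey 1 after ischemia.

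miR-6529-5p, an arm of a hairpin inside GSK3B, the gene of a kinase of glycogen and Wnt signalling, was the most abundant member. Its normalized values were 22111, 23102 and 14597 in monkeys 1, 2 and 3 before ischemia and 11255, 21413 and 10362 after. The groups overlapped, and each monkey was lower after ischemia. The log2 fold change was −0.53 (SE 0.37, limma, adjusted p = 0.431). Log2 fold changes here and below are after over before on the scale of log2(value + 1). The 3p arm was listed at 195, 8.07 and 93.9 before and 127, 123 and 98.6 after.

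miR-1271-5p, an arm of a hairpin inside ARL10, the gene of a small GTPase, was second in level and rose after ischemia. It is a conserved mammalian miRNA whose seed, that of miR-96, was described above. It measured 7445, 3632 and 4883 before ischemia and 14875, 17539 and 18699 after, means of 5320 ± 1944 and 17038 ± 1961 (SD, n = 3). All values after ischemia lay above all values before. The log2 fold change was 1.74 (SE 0.33, limma, adjusted p = 0.0224). The call was lost without the library after ischemia of monkey 1 (adjusted p = 0.062) or 3 (0.087), without that before ischemia of monkey 2 (0.0711) or 3 (0.0778), and without both libraries of monkey 3 (0.325), with a log2 fold change from 1.49 to 1.83 in these fits. It was also lost on scaling to library totals (1.35, adjusted p = 0.0776) and without a variance trend (0.0888). In the paired fit, blocked on the monkey, it held (adjusted p = 0.0349).

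miR-96, known from sensory cells and encoded apart from miR-1271, measured 23.4, 8.07 and 30.5 before ischemia and 1118, 169 and 130 after. The groups did not overlap, and monkey 1 stood far above the others after ischemia. Its log2 fold change was 3.94 (SE 0.89, limma, adjusted p = 0.0393), and without the library of monkey 1 after ischemia it was 2.97 (adjusted p = 0.0949). The call was lost too without each other library but that of monkey 2 after ischemia, at adjusted p from 0.0508 to 0.0754, without both libraries of monkey 1 or 3 (0.12 and 0.165), on scaling to library totals (0.0508) and without a variance trend (0.0951). Level for level, miR-1271-5p stayed the larger of the pair in all 6 libraries. For 100 normalized counts of miR-96 there were 15993 to 45008 of miR-1271-5p before ischemia and 1330 to 14364 after. Both sequences carry the same 7 seed letters, and no longer run was shared.

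**Figure D1:**
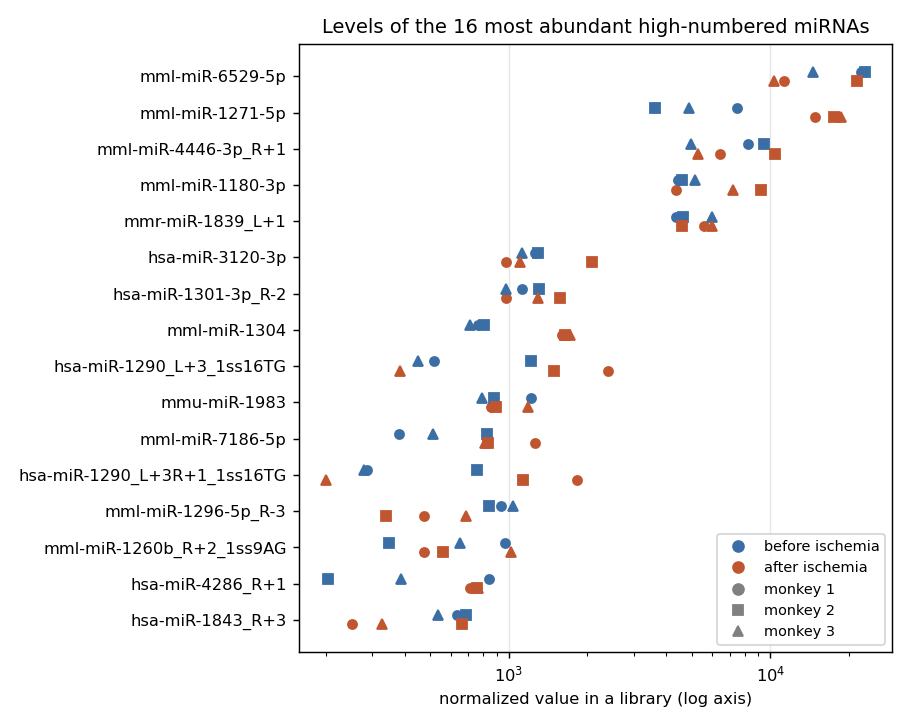
Normalized values of the 16 most abundant members in each library on a log axis, blue before and orange after ischemia, with a marker shape for each monkey. miR-6529-5p, with 10362 to 23102, and miR-1271-5p, with 3632 to 18699, lead, and among these 16 the groups are apart for miR-1271-5p, miR-1304 and miR-1296-5p.

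The third to sixth members in level had overlapping groups. miR-4446-3p, from a hairpin inside SIDT1, the gene of a membrane protein linked to RNA uptake, measured 8242, 9456 and 4971 before ischemia and 6425, 10452 and 5287 after (log2 fold change −0.04, SE 0.38, limma, adjusted p = 0.973). miR-1180-3p, inside the ciliary gene B9D1, measured 4428, 4591 and 5164 before and 4377, 9249 and 7195 after (0.49, SE 0.34, limma, adjusted p = 0.432). The 3 values before ischemia lay close together, and those after were spread. miR-1839, named after a mouse lemur entry and counted below among likely fragments of other noncoding RNA, measured 4367, 4624 and 6003 before and 5555, 4582 and 5985 after (0.11, SE 0.29, limma, adjusted p = 0.888). miR-3120-3p measured 1260, 1292 and 1124 before and 979, 2083 and 1108 after (0.10, SE 0.38, limma, adjusted p = 0.923). On scaling to library totals the last 2 changed sign.

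Between the groups, few members passed the test. Over the 807 entries tested, 1.98% were higher after ischemia and 3.47% lower at an adjusted p under 0.05 (limma, Benjamini-Hochberg). Among the 138 members 1 was higher and 1 was lower, 0.725% each, both shares below the background. At an unadjusted p under 0.05 there were 21 members, 15.2%, of which 9 were higher and 12 lower, against 22.3% of all entries. The groups did not overlap, with all values after ischemia higher, for 9 members, 6.52%, against 11.5% of all entries. They did not overlap with all values after ischemia lower for 17 members, 12.3%, against 15.4%. Of these 17, 7 had a library at 0, and of the 9, 0 had. Among the 17 are 4 that met the rule only through the libraries before ischemia and so had to be lower. The median log2 fold change was −0.01 over the members, with 69 above 0 and 69 below, and −0.06 over all entries. Scaling to library totals moved the latter to −0.43 and the former to −0.39.

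**Figure D2:**
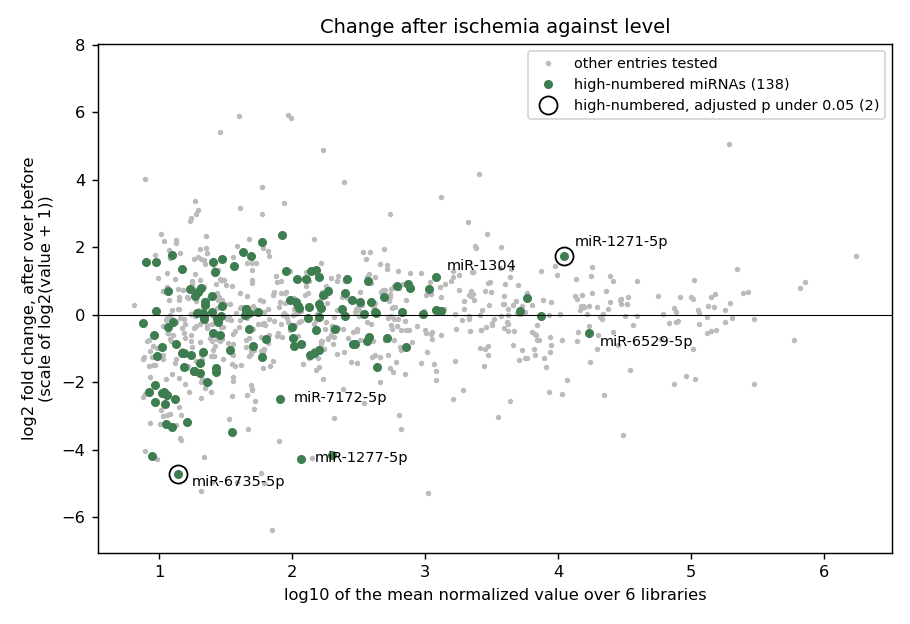
Log2 fold change after over before ischemia against the log10 of the mean normalized value for the 807 entries tested, with the 138 members in green and the 2 that passed the test ringed. miR-1271-5p at 1.74 stands at the right, and miR-6735-5p at −4.73 lies among the members with a low mean.

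miR-6735-5p was the member with a lower call. It met the limit of the rule only through the libraries before ischemia, so the choice of members itself fixed that it was lower after, and its p is no independent support. Its sequence, cAGGGCAGagagcacaggaatct, is 2 bases shorter at the 3′ end than the human entry it was matched to. It measured 14.8, 41.7 and 26.6 before ischemia and was listed at 0 in all libraries after. Against 5 reads per library the mean was at least 3.68-fold lower. The fitted change (log2 fold change −4.73, SE 1.097, limma, adjusted p = 0.0443) rests on these zeros. It was lost in the paired fit, blocked on the monkey (adjusted p = 0.0801), with a pseudocount of 0.5 (0.0569), without a filter (0.0515) and without the library after ischemia of monkey 1 (0.0712) or 3 (0.0508). When every value under 5 reads of the shallowest library was raised to that value in all libraries, the change was −1.36 (adjusted p = 0.12). The libraries after ischemia are the shallower ones, and the part of depth in this result was not tested further.

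A further 3 members reached 10 in all libraries before ischemia and in none after. With miR-6735-5p these were 4 members, 2.90%, against 1.98% of all entries, and the reverse was seen in 0 members and 0.991% of all entries. All 4 met the rule only through the libraries before ischemia, the deeper ones, so their direction was fixed by that choice and their p-values are given as a description. miR-9980, matched to a marmoset entry, measured 16.4, 13.4 and 23.2 before and was listed at 0 in all libraries after, which is at least 2.34-fold lower against 5 reads per library (limma, adjusted p = 0.0833). miR-7206-3p, from a hairpin inside SH3KBP1, the gene of an adaptor protein of endocytosis, measured 10.1, 43.7 and 14.1 before and 0, 6.41 and 0 after (limma, adjusted p = 0.163). miR-1468, an X-linked miRNA in human, measured 14.8, 20.2 and 23.2 before and 0, 8.98 and 0 after (limma, adjusted p = 0.163). All 4 lay near the limit of the rule, so none of them rests on many reads.

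The X-linked conserved list had 3 members of 4 rows, and both arms of miR-1277 were among them. This hairpin lies inside WDR44, the gene of a protein of vesicle recycling. The 5p arm, hsa-miR-1277-5p_L-3, measured 86.5, 383 and 169 before ischemia and 0, 50.004 and 14.9 after. The 3p arm, mml-miR-1277, measured 121, 681 and 266 before and 0, 41.0 and 94.8 after. For both arms the groups did not overlap, monkey 2 was highest before, and the library of monkey 1 after ischemia was listed at 0. The log2 fold changes were −4.26 (SE 1.33, limma, adjusted p = 0.113) and −4.14 (SE 1.54, limma, adjusted p = 0.159). In the paired fit with the block the 5p arm passed (adjusted p = 0.0338) and the 3p arm did not (0.0615). Without the library of monkey 1 after ischemia the changes were −2.65 and −2.15. The sequences are AT-rich, and those of the arms follow.
hsa-miR-1277-5p_L-3: tATATATAtatatgtacgtat
mml-miR-1277: tACGTAGAtatatatgtattt
Of the 3 members 0 passed the test. The third, miR-1468, met the rule only through the libraries before ischemia, and the other 2 come from 1 hairpin, so no median is given.

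**Figure D3:**
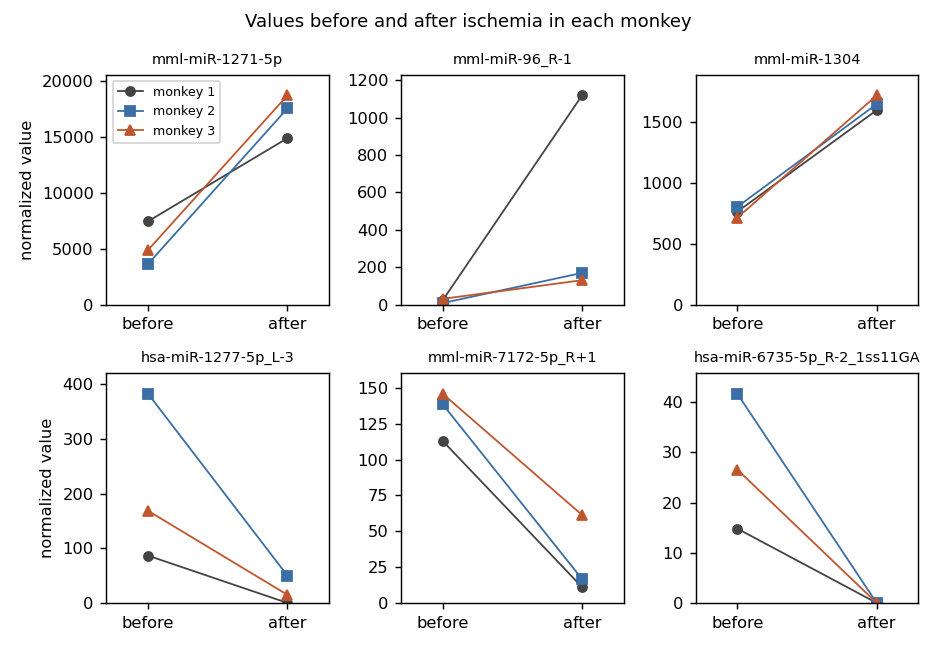
Normalized values before and after ischemia of miR-1271-5p, miR-96, miR-1304, miR-1277-5p, miR-7172-5p and miR-6735-5p, with a line for each monkey and the axis from 0. In all 6 panels the 3 lines run in 1 direction, and miR-1304 lies at 712 to 802 before and at 1594 to 1715 after ischemia.

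The repeat-derived list held 5 members of 7 rows, and 0 passed the test. miR-1304, from a hairpin inside TAF1D, the gene of a factor of ribosomal RNA transcription, measured 762, 802 and 712 before ischemia and 1594, 1644 and 1715 after. The values of a group differed little and the groups were far apart, yet the moderated test gave an adjusted p of 0.0785 (log2 fold change 1.12, SE 0.30, limma) and the paired fit with a block 0.0804. Scaling to library totals lowered the change to 0.73 (adjusted p = 0.201). Its other arm measured 23.4, 18.2 and 16.4 before and 41.4, 28.2 and 20.5 after (0.57, limma, adjusted p = 0.657). Of the miR-1285 forms in this list, the one named after pig measured 203, 25.6 and 46.4 before and 27.6, 20.5 and 29.8 after (limma, adjusted p = 0.39). The human form hsa-mir-1285-1-p5 measured 14.02, 6.05 and 11.3 before and 49.6, 10.3 and 59.5 after (limma, adjusted p = 0.333). The list had a median of 0.57 with 3 of 5 above 0. It was 0.20 on scaling to library totals, 0.32 without the library of monkey 1 after ischemia, 0.23 for the 4 members at 10 in all 6 libraries and −0.07 for the 2 with a mean of at least 50.

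Among the widely conserved members, 10 of 12 rows, 1 passed the test, miR-1271-5p. The median was 0.27 with 6 of 10 above 0, and on scaling to library totals it was −0.23 with 3 of 9. miR-1296-5p, inside JMJD1C, the gene of a histone demethylase family member, measured 934, 844 and 1035 before ischemia and 473, 340 and 690 after. The groups did not overlap (log2 fold change −0.96, SE 0.38, limma, adjusted p = 0.172). miR-1843b-3p, matched to rat, measured 185, 259 and 158 before and 73.1, 114 and 83.7 after (−1.14, SE 0.44, limma, adjusted p = 0.167), also without overlap.

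The DGCR8 transcript, whose protein partners Drosha, holds the hairpin of miR-1306, and both arms were members. miR-1306-5p measured 108, 51.8 and 80.3 before ischemia and 250, 178 and 158 after, without overlap (log2 fold change 1.31, SE 0.47, limma, adjusted p = 0.153). miR-1306-3p measured 266, 312 and 174 before and 164, 369 and 221 after (−0.04, limma, adjusted p = 0.981). Among mirtrons, introns that fold into a hairpin without Drosha, 1 of 3 rows was a member. This was miR-1226, inside the helicase gene DHX30, with 31.9, 8.07 and 17.5 before and 0, 24.4 and 68.8 after (limma, adjusted p = 0.888).

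The rhesus series miR-7150 to miR-7210, registered from this species, had 12 members of 23 rows. None passed the test, 1 had an unadjusted p under 0.05 and was higher, and 3 had one and were lower. The median log2 fold change was −0.43 with 5 of 12 above 0, but its direction was not stable. It was −0.20 and −0.09 without the library before ischemia of monkey 1 or 2, −0.25 without that after ischemia of monkey 3, −0.82 on scaling to library totals, 0.03 among the 9 at 10 in all 6 libraries, and 0.14 with 6 of 9 above 0 without both libraries of monkey 2. miR-7172-5p measured 113, 139 and 146 before ischemia and 11.03, 16.7 and 61.4 after, without overlap (−2.49, SE 0.69, limma, adjusted p = 0.0833). Without the library of monkey 3 after ischemia it passed (−3.19, adjusted p = 0.0292). miR-7174-5p measured 67.0, 50.4 and 66.7 before and 8.27, 17.95 and 0 after (−3.47, SE 1.098, limma, adjusted p = 0.115), and with the raised floor described above it passed (−2.29, adjusted p = 0.0275). miR-7184-3p, inside JAZF1, the gene of a zinc finger protein, measured 19.5, 22.9 and 11.9 before and 73.1, 80.8 and 48.4 after (1.86, SE 0.59, limma, adjusted p = 0.115). Among entries at 10 in all 6 libraries miR-7184-3p passed (limma, adjusted p = 0.0437), and so did miR-7172-5p (0.0429). miR-7180-3p, the seed mate of miR-7172-5p, had a log2 fold change of −0.77 (limma, adjusted p = 0.356).

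Members on the opposite strand of an older miRNA were 4 of 5 rows, and 0 passed the test. miR-3074-5p measured 129, 132 and 51.7 before ischemia and 136, 153 and 66.0 after (log2 fold change 0.21, limma, adjusted p = 0.888). Its partner miR-24-3p lay at 32602 to 48639 before and 35661 to 44238 after, and miR-3074-5p came to 0.134 to 0.397 per 100 of it. miR-3074-3p measured 63.1, 60.5 and 24.3 before and 164, 172 and 52.1 after (1.31, SE 0.66, limma, adjusted p = 0.293). Of both arms, monkey 3 was lowest in each group. miR-3120-3p, in contrast, exceeded its partner hairpin's main arm miR-214-3p in every library, with 181 to 973 per 100 normalized counts. miR-3120-5p measured 10.9, 22.2 and 9.05 before and 0, 0 and 22.3 after (limma, adjusted p = 0.387). The sign of the median of this list, 0.16, changed on scaling to library totals (−0.23).

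Likely fragments of other noncoding RNA were 18 members of 33 rows. None passed the test, and 2 had an unadjusted p under 0.05, both higher. The median log2 fold change was 0.46, and 17 of 18 were above 0. These counts take the 3 miR-1260 forms with identical values as separate members. On scaling to library totals the median was 0.07 with 9 of 18 above 0, and without the library of monkey 2 before ischemia it was 0.23 with 12 of 18. The list holds overlapping sequences: the 6 forms of miR-1260, 3 of miR-3968 and the nested sequences of miR-1290 and miR-1246, which is known in human as a fragment of the U2 spliceosomal RNA. Over all members, sequences with a run of 15 shared bases formed 11 families with 28 members. miR-1246 measured 408, 419 and 179 before ischemia and 986, 819 and 115 after. The more abundant miR-1290 form hsa-miR-1290_L+3_1ss16TG measured 518, 1216 and 450 before and 2389, 1491 and 385 after (0.76, SE 0.69, limma, adjusted p = 0.552). They shared a run of 19 bases, and monkey 3 was lowest for both in each group.
hsa-miR-1246_L-1R+1: aTGGATTTttggagcaggg
hsa-miR-1290_L+3_1ss16TG: aAATGGATttttggagcaggga
The members of this list with the smallest p were miR-7977 and both miR-3968 forms named here. miR-7977 measured 61.5, 9.08 and 12.7 before ischemia and 90.3, 108 and 76.2 after (2.16, SE 0.76, limma, adjusted p = 0.147). Without the library of monkey 1 before ischemia it passed (2.96, adjusted p = 0.0383). mmu-miR-3968_L-3_1ss14AT measured 282, 93.8 and 159 before and 296, 417 and 311 after (1.06, limma, adjusted p = 0.243), and mmu-miR-3968_L-2_1ss14AT 22.98, 12.8 and 20.6 before and 60.0, 71.2 and 32.5 after (1.46, limma, adjusted p = 0.211).

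The 14 members ending in CCA, of which 4 belong to the list just described, had 1 library apart. Their summed value was 4732 in monkey 1 before ischemia, against 957 and 1825 in monkeys 2 and 3 and 2227, 2266 and 2344 after. miR-1386 measured 1440, 312 and 308 before ischemia and 127, 201 and 223 after. Even the lowest value before exceeded the highest after (log2 fold change −1.53, limma, adjusted p = 0.193). miR-9995-3p measured 754, 133 and 310 before and 220, 150 and 154 after, and miR-9993a-3p 333, 68.6 and 165 before and 123, 102 and 117 after. miR-9993b-3p measured 317, 16.1 and 69.8 before and 98.6, 85.3 and 79.0 after. In these 4 monkey 1 was highest and monkey 2 or 3 lowest before ischemia, and the values after were close together. The median over the 14 was −0.66 with 6 above 0. Without the library of monkey 1 before ischemia it was 0.72 with 7 of 12 above 0. Among the 8 at 10 in all 6 libraries it was 0.57 with 5 above 0, so its direction was not stable. None of the 14 passed the test.

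**Figure D4:**
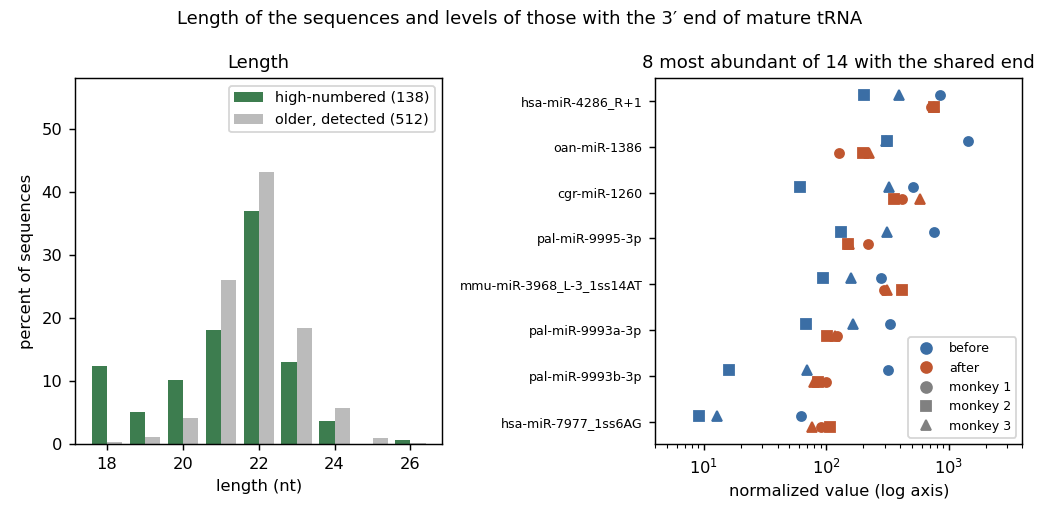
Left, the percent of sequences of each length in nt among the 138 members (green) and the 512 detected older sequences (grey). Right, normalized values on a log axis of the 8 most abundant members that end like mature tRNA, blue before and orange after ischemia. At 18 nt stand 12.3% of the members and 0.391% of the older sequences, and monkey 1 before ischemia is highest for 5 of the 8 shown.

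Short length went beyond this group. Of the 138 members 24, 17.4%, were shorter than 20 nt, against 1.56% of the older sequences, and 12 of the 24 ended in CCA. The median length was 22 nt in both sets. The median GC content was 54.5% against 47.6%, and 34.1% against 41.2% began with T. A substitution relative to the matched entry was noted for 33.3% of the members and 9.38% of the older sequences. The 45 members with a rhesus name differed from the 93 named after other species: 0 of them were shorter than 20 nt, against 25.8%, and a substitution was noted for 11.1%, against 44.1%. The median of their mean values was 108 against 34.0 normalized counts, and the median spread within a group, as an SD on the log2 scale, was 0.628 against 1.05. Of the rhesus-named members 1 was higher and 0 were lower after ischemia, and of the others 0 were higher and 1 was lower. A neighbouring gene could be looked up by name for 44 members, from 35 miRNA genes, of which 30 lie inside another gene of the RefSeq annotation of T2T-MMU8v2.0.

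Of the members with the seed of an older miRNA, miR-6134, miR-6827-3p, mir-1973-p3 and miR-7194-5p had a lower mean than it. miR-1271-5p, miR-7205-3p and miR-3964 had a higher one, miR-3964 only against a rare lengthened form of miR-106b-5p. mml-miR-6134 has the let-7 seed and shares a run of 11 bases with let-7g-5p. This seed was found in 12 detected older entries, and the shared run was computed for let-7g-5p only. Reads of miR-6134 may not be separable from those of the other let-7 entries, such as let-7a-5p, and this was not tested. miR-6134 measured 32.3, 31.2 and 21.8 before ischemia and 21.4, 48.1 and 19.99 after, 0.002 to 0.007 per 100 normalized counts of let-7g-5p (limma, adjusted p = 0.985). let-7g-5p, by contrast, measured 492173, 522979 and 430559 before and 788341, 897145 and 834698 after (log2 fold change 0.80, limma, adjusted p = 0.104). mmu-miR-3964 shares a run of 19 bases with mml-miR-142-5p, a leukocyte miRNA, and came to 0.007 to 0.086 per 100 of it, so its reads may not be separable from those of that miRNA. It measured 76.3, 23.5 and 79.7 before and 356, 17.95 and 208 after (1.07, limma, adjusted p = 0.602), while miR-142-5p measured 96509, 144564 and 126885 before and 411830, 245238 and 304754 after (1.37, limma, adjusted p = 0.0354). Its seed is also that of miR-106b-5p in a form listed at 0 to 20.4. miR-7205-3p, inside SAMM50, the gene of a mitochondrial outer membrane protein, shares the seed of miR-301a-5p and measured 119, 188 and 102 before and 138, 129 and 108 after (limma, adjusted p = 0.946). miR-301a-5p itself measured 67.8, 54.5 and 44.7 before and 19.3, 17.95 and 18.6 after (−1.51, limma, adjusted p = 0.159). miR-6827-3p with the seed of miR-340-3p and mir-1973-p3 with that of miR-19b had adjusted p-values of 0.885 and 0.703 (limma).

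For 18 hairpins, a 5p and a 3p sequence of the same number were both among the members. The pairs were formed by number, also across species names. For miR-1285 a pig 5p entry stands beside a human 3p entry, so these may not be arms of the same hairpin. The 5p arm was on average the higher one in 9 and the 3p arm in 9, and in 10 hairpins the same arm was higher in all 6 libraries. For miR-6529 the log2 ratio of 5p to 3p was between 6.46 and 11.3, and for miR-1839 between 6.19 and 7.16. The 3p arm of miR-1839 measured 29.6, 62.5 and 71.2 before ischemia and 44.1, 61.5 and 59.5 after. For miR-4446, whose 5p arm measured 11.7, 26.2 and 11.3 before and 16.5, 0 and 0 after, the ratio was between −13.4 and −8.44, and for miR-3120 it was between −11.03 and −5.57, in both cases lowest in libraries that listed the 5p arm at 0. The ratio of miR-1304 was 5.24 ± 0.23 before ischemia and 5.79 ± 0.54 after (SD, n = 3, exact two-sided permutation test, p = 0.3). The groups did not overlap for 3 hairpins. For miR-1306 the ratio went from −1.65 ± 0.80 to −0.31 ± 0.84, and for miR-3074 from 1.07 ± 0.05 to −0.03 ± 0.32 (SD, n = 3). The 5p arm of miR-2355 was listed at 0 in 2 of the 3 libraries after ischemia, so its ratio depends on the pseudocount: the difference between the groups was −3.60 with a pseudocount of 1 and −1.65 with 10. Each of the 3 hairpins had p = 0.1 in the exact two-sided permutation test, the smallest that 3 libraries against 3 allow, and p = 0.6 after Benjamini-Hochberg adjustment over the 18 hairpins. With a pseudocount of 10 in place of 1, 5 hairpins reached p = 0.1 in this exact test.

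Some members kept a low or a high value in the same monkey at both times. Over all entries the F test of the 3 monkeys beside the group (limma) called 0%, and at an unadjusted p under 0.05 it had 11.4% of the entries and 14 of the 138 members, 10.1%. This test was added after the values had been seen, and the members named next were chosen by their small p. hsa-mir-4732-p5, whose human hairpin lies in the cluster of the red cell miRNAs miR-144 and miR-451, was listed at 0 in monkey 1 at both times. It measured 90.4 and 129 before ischemia and 32.1 and 51.1 after in monkeys 2 and 3 (unadjusted p = 0.00053, limma, adjusted p = 0.107). On scaling to library totals it was the only member that passed. The name hsa-mir-4732-p5_1ss8TC notes a substitution in the sequence, aGGGAGCCgtagagcagggag, and no other miR-4732 entry was listed. hsa-miR-5699-5p_R+1_1ss3CA measured 940, 309 and 88.8 before ischemia and 625, 447 and 113 after in monkeys 1, 2 and 3 (unadjusted p = 0.00186, limma, adjusted p = 0.15). The order of the monkeys was the same at both times. miR-3200-3p, inside the oxysterol-binding protein gene OSBP2, measured 58.4, 59.8 and 288 before and 212, 46.2 and 348 after (unadjusted p = 0.0184, limma, adjusted p = 0.335). Monkey 3 was highest at both times, and monkey 1 differed between them.

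**Figure D5:**
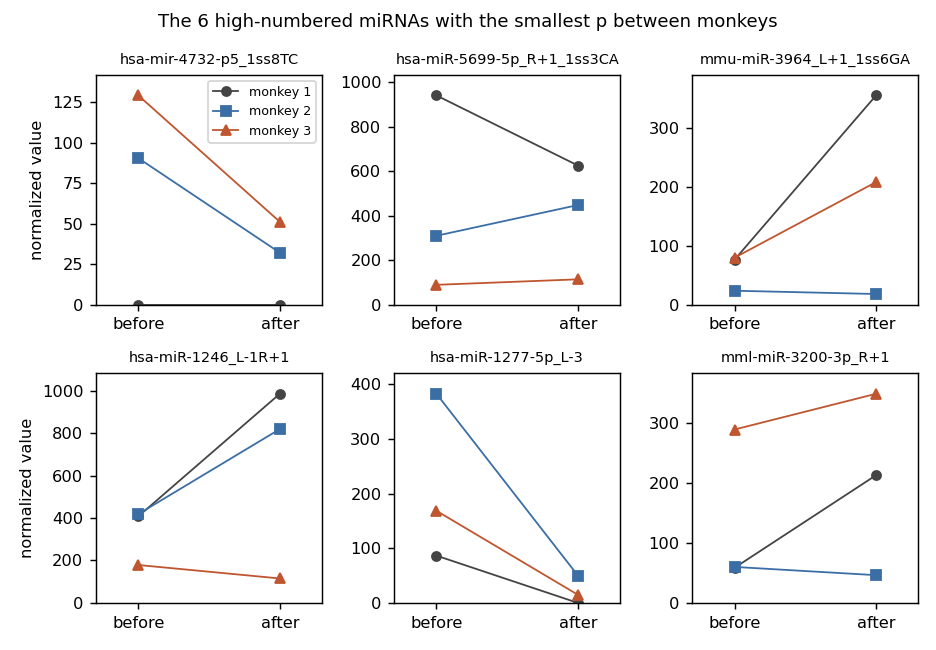
Normalized values before and after ischemia, with a line for each monkey and the axis from 0, of the 6 members with the smallest unadjusted p between monkeys. miR-5699-5p keeps the order of monkeys 1, 2 and 3 with 940, 309 and 88.8 before and 625, 447 and 113 after, and mir-4732-p5 stays at 0 in monkey 1.

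One further member, outside the lists, passed the test in 2 alternative fits only. It is named here after its values had been seen. Its sequence was listed in 2 rows with the same values, as marmoset miR-3135 and as human mir-8086, both with a substitution. The reads can thus not be credited to either name. This sequence measured 29.6, 11.1 and 43.3 before ischemia and 199, 75.6 and 148 after, without overlap. The log2 fold change was 2.37 (SE 0.67, limma), with an adjusted p of 0.0861. In the paired fit with the block it was 0.0413, and among entries at 10 in all 6 libraries 0.0452.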

How the data were processed

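Plasma small RNA was sequenced as single reads of 50 bp on an Illumina HiSeq, 1 library per monkey and time. According to their methods the authors ran ACGT101-miR, which removes adapters and reads that match Rfam families other than miRNA, keeps lengths from 18 to 26 nt and assigns the rest to precursors. Its version and the genome build are not given in the sources used here. The deposited signal values are normalized counts. Most values above 0, but not all, came to whole reads after division by 1 factor per library. Since rare rows are mostly listed at 0 rather than under 5 reads, a 0 is no proof of absence. The value of 1 read was found from the steps of the deposited values.

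The 5 empty lines of 2051 were dropped, and no column was without a sample. log2(value + 1) of the 807 rows with 10 or more in 3 libraries was tested with limma 3.58.1 in R 4.3.3 with a variance trend, no covariate and Benjamini-Hochberg adjustment at 0.05. Arm ratios, seeds (bases 2 to 8) and overlaps were computed in Python 3.11.15 with pandas 2.3.3 and NumPy 2.4.6, and figures were drawn with Matplotlib 3.10.9. Gene names came from RefSeq. The test was also run on simulated data with independent normal noise. These data held neither the uneven depth nor the listing of rare rows at 0, so they do not bear on calls near the limit.

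Same replicate numbers are taken to mark the same monkey, since the study joins them, but the sample labels do not say so. Deviations from the group means correlated at 0.18, 0.36 and 0.29 for the same number and from −0.40 to 0.14 otherwise. Nothing says that a monkey gave more than 1 library per time. The main fit leaves this pairing out, so its p-values set a change against the spread between the 3 animals within a group. The exact test of the arms leaves it out too. Only the fit with the replicate block takes up the change within each monkey.

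The members and lists were chosen with earlier results of these data known. Named were the members past the threshold, the 6 most abundant, up to 3 per list with the smallest p, both arms of 5 hairpins, members at the limit in 1 group only, 6 sharing a seed with an older miRNA, and those at the limit of the rule. Alternatives were other scalings, pseudocounts, filters, a replicate block, no variance trend, each sequence once and left-out libraries. A common floor and the test between monkeys were chosen after seeing the data.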

Additional observations from a re-analysis of the deposited data

How the results depend on the processing

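The 2 calls among the members rest on few libraries. Of the 138 members 1 was higher and 1 lower after ischemia. Higher members numbered 0 on scaling to library totals and without a variance trend, 3 among entries at 10 in all 6 libraries, 2 in the paired fit with the replicate block, and 0 to 2 with libraries left out. Lower members numbered 2 on scaling to library totals, without a variance trend and with the common floor, 0 with a pseudocount of 0.5, without a filter and with a mean of at least 50, 3 with a pseudocount of 10, and 0 to 3 with libraries left out. Over all entries 16 were higher, 10 without a variance trend and 2 to 24 with libraries left out, and 28 were lower, 46 on scaling to library totals and 1 to 28 with libraries left out. The replicate block gave 17 and 29. Between monkeys 1 member passed on scaling to library totals. The member with the highest mean over all libraries was also left out of every library, though it was not the largest in each. Without this member the mean share was 0.474% before and 0.499% after ischemia, against 0.693% and 0.621% with it. The order of the groups thus turned. Leaving out the largest member of each single library was not tested. A filter can take an entry out, so not every member has a value in every fit, and the causes were not tested.

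Scaling to library totals turned the log2 fold changes of mmr-miR-1839 (−0.28), miR-3120-3p (−0.29), miR-3074-5p (−0.18), miR-1839-3p (−0.29) and miR-6827-3p (−0.12), and miR-1226 turned with a pseudocount of 10 (0.13) and with the common floor (0.51). With libraries left out, the changes that took both signs ran from −0.32 to 0.17 for miR-4446-3p, from −0.0088 to 0.25 for mmr-miR-1839, from −0.23 to 0.33 for miR-3120-3p, from −0.35 to 0.30 for miR-1306-3p, from −0.27 to 0.17 for miR-7205-3p, from −0.23 to 0.58 for miR-3074-5p, from −0.27 to 1.99 for miR-6529-3p, from −0.29 to 0.33 for miR-1839-3p, from −0.25 to 0.67 for miR-6827-3p, from −0.42 to 0.24 for miR-6134 and from −1.81 to 1.70 for miR-1226. None of these members passed the test as reported. Rows under 5 reads are mostly listed at 0, so levels below 6.41 to 9.30 normalized counts after ischemia were mostly not resolved.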
